A study of Mus musculus with 6 samples.

Results

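The genes described here are 34 mouse genes of Schwann cells and satellite glia, taken by name out of the 47643 gene identifiers in the count tables. They comprise 12 myelin sheath proteins, 8 signals and receptors, 4 transcription factors, and 10 genes of Schwann cell precursors and satellite glia. The list was chosen with earlier results of these data known, so counts over it are a description. RNA was sequenced from dorsal root ganglia of CD-1 mice at embryonic day 13, labelled as uninjured neurons in the series' design. The shUHRF1 group (3 libraries) received a lentivirus carrying a hairpin against Uhrf1, whose protein reads methylated DNA and recruits the maintenance methyltransferase. The shControl group (3 libraries) received a lentivirus carrying a control hairpin, so both groups were transduced. The labels give no sex, culture time or number of embryos, and do not say whether libraries of a group came from separate cultures, so the spread behind each p-value is that between libraries and could be technical alone.

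Schwann cells and satellite glia both descend from the neural crest, as do the sensory neurons they accompany. Schwann cells follow axons, depend on neuregulin displayed by the axon and read by the ErbB2 and ErbB3 receptor pair, and later wrap some axons in myelin. Satellite glia enclose the neuronal cell bodies in the ganglion, where they take up glutamate and potassium and are coupled by gap junctions. In the embryo at day 13 the glial lineage is at its precursor stages and myelination has not begun. The labels give no culture time, so the stage of the transduced cells when RNA was taken is not known.

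The libraries held 16501723 to 20973068 reads in genes in the shUHRF1 group and 15599776 to 22382813 in the shControl group. Levels are given as CPM, reads of a gene relative to the library's total, scaled by trimmed mean of M values (TMM) factors, and changes as log2 fold changes of shUHRF1 over shControl ± SE. A change was called at an adjusted p under 0.05 in edgeR's quasi-likelihood test, with Benjamini-Hochberg adjustment over all 15573 genes that passed the filter on low counts. That fit took no account of the replicate number, and fits with the number as a block are named as such. Uhrf1 itself had 2, 1 and 5 reads in the shUHRF1 libraries, against 8, 6 and 5 reads in the shControl libraries. In CPM the groups overlapped narrowly, and the ratio of pooled levels was 0.377 (95% exact interval 0.143 to 0.901, counting error only). An exact permutation test of the CPM gave a two-sided p of 0.2, where 3 against 3 libraries can reach 0.1 at the lowest, and Uhrf1 did not pass the filter for the test across genes. The 15 neuronal markers summed to 21341, 26531 and 28009 CPM in the shUHRF1 libraries, against 29284, 27896 and 33392 CPM in the shControl libraries. All 34 glial genes summed to 439, 979 and 804 CPM in the shUHRF1 libraries, against 945, 879 and 972 CPM in the shControl libraries.

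Of the 34 genes, 21 passed the filter on low counts and 13 did not. Erbb3, Ednrb, Dhh, Foxd3, Fabp7, Cdh19, Apoe, Gja1 and Gjc3 were higher in shUHRF1 libraries, by log2 fold changes of 2.64 to 5.46. Mbp was lower, and the remaining 11 tested genes were not called. Over all tested genes, 11.6% were called higher and 12.4% lower. A gene of low level could pass the filter through the shUHRF1 libraries alone, and such a gene had to differ, so the share among tested members is given as a description. The tested members had a median log2 fold change of 1.39, beside 0.02 over all tested genes. That median rests on genes of low level that could pass through the shUHRF1 libraries alone. It turned to -0.11 when genes had to reach 2 CPM in 3 or more libraries, and was 0.79 without shUHRF1 replicate 3. Over the 34 genes, the 3 shUHRF1 values all lay above the 3 shControl values for 15 and all below for 2 (Mbp and Nrg1), and the groups overlapped for 17. Among the tested members these counts were 10 above and 2 below, beside 21.7% above and 22.3% below over all tested genes. In bulk RNA, a change in the number of cells of a type and a change in RNA per cell cannot be told apart.

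**Figure D1:**
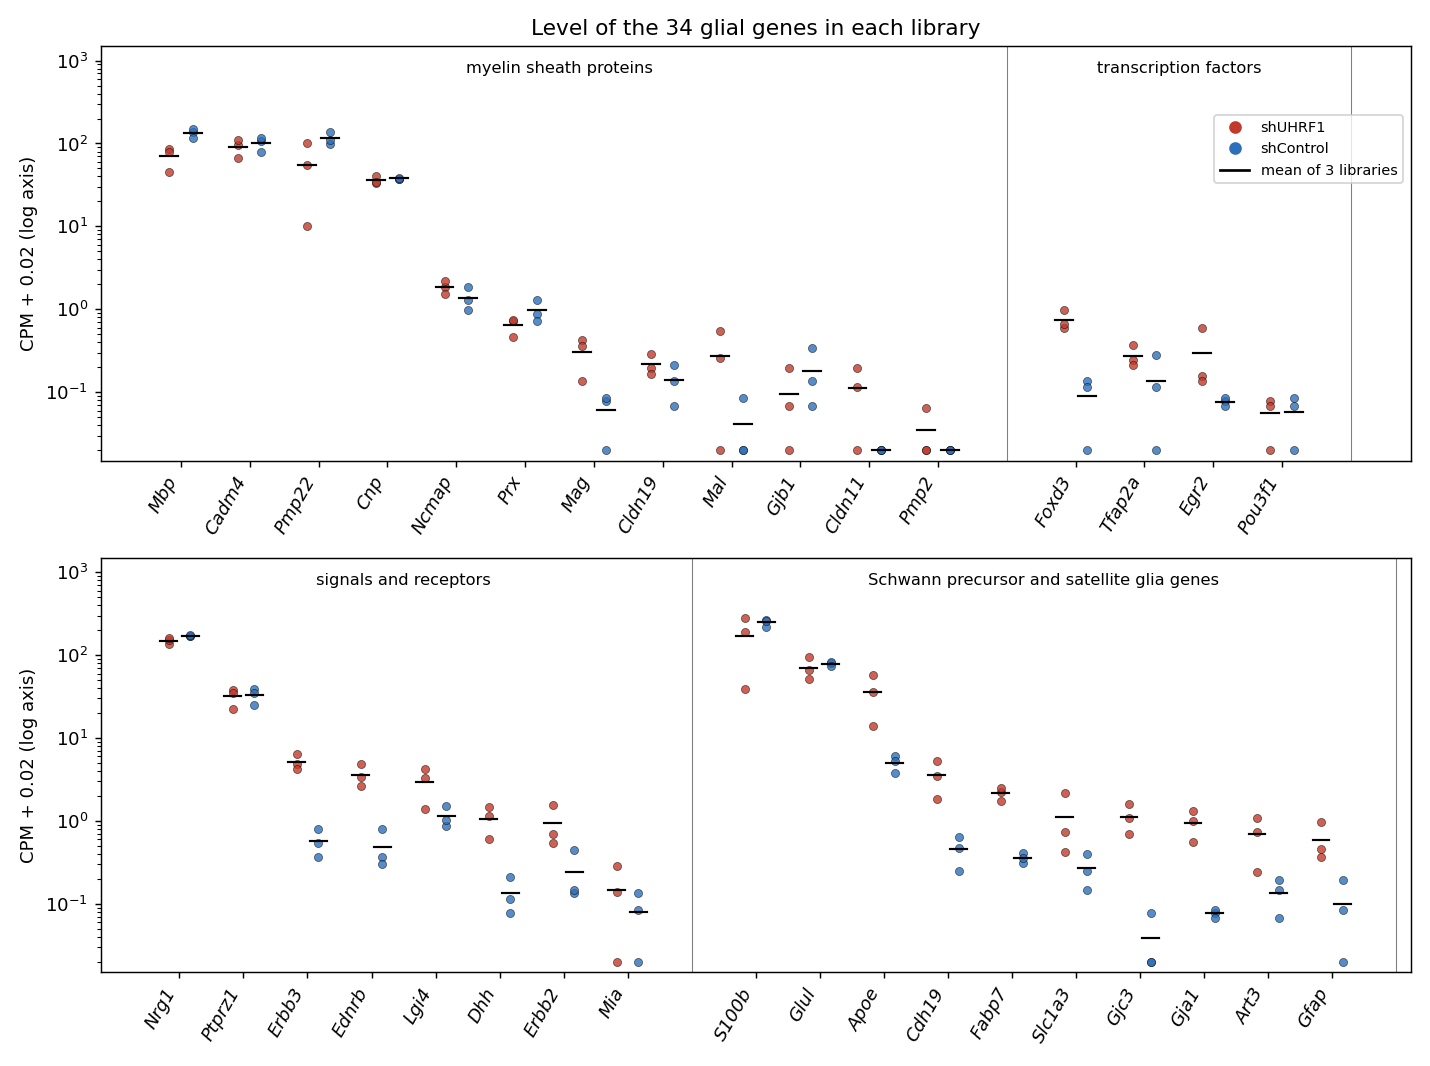
Level of each of the 34 genes in each library (points) with the group mean (bar), in CPM on a log axis with a small constant added so that 0 can be drawn, and shUHRF1 left of shControl. Erbb3, Gjc3 and Gja1 are among the genes whose shUHRF1 points all lie above the shControl points, while Cnp and Ptprz1 overlap.

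The genes fell apart by level, a split at a mean of 10 CPM that was drawn after the values were seen. No gene lay between Erbb3, with a mean over all 6 libraries of 2.86 CPM, and Apoe, with 20.5 CPM. The 9 abundant genes had a median log2 fold change of -0.16, with Apoe called higher and Mbp called lower. Beside 11.6% called higher and 12.4% lower over all tested genes, the 25 genes of low level had 12 tested, 8 called higher and none lower. Their reads summed to 490, 486 and 726 in the shUHRF1 libraries, against 119, 109 and 134 in the shControl libraries. In CPM these sums were 22.0, 28.6 and 35.2 in shUHRF1 libraries and 6.91, 7.06 and 6.41 in shControl libraries, which did not overlap. The 9 abundant genes summed to 417, 951 and 769 CPM in shUHRF1 libraries and 939, 872 and 966 CPM in shControl libraries, which overlapped.

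**Figure D2:**
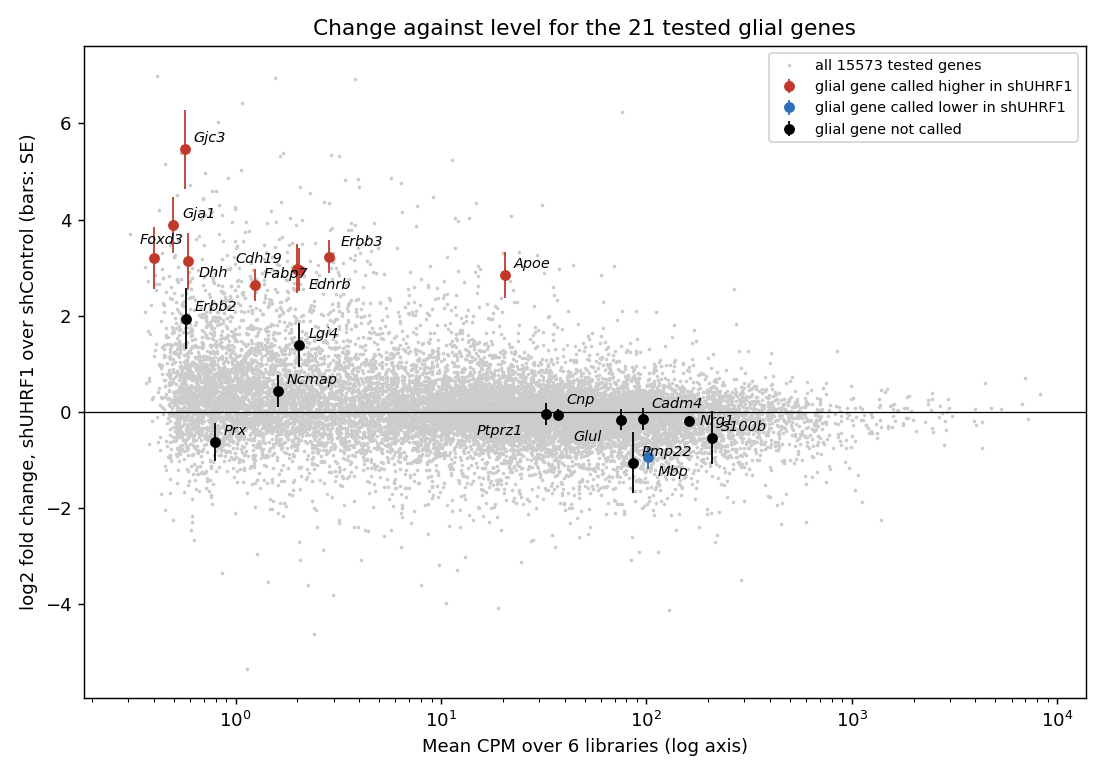
Log2 fold change of shUHRF1 over shControl (vertical axis) against mean level in CPM (log horizontal axis) for all tested genes, with the glial genes marked. Most called glial genes sit at low levels and high changes, and the abundant ones other than Apoe lie near or under 0.

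**Figure D3:**
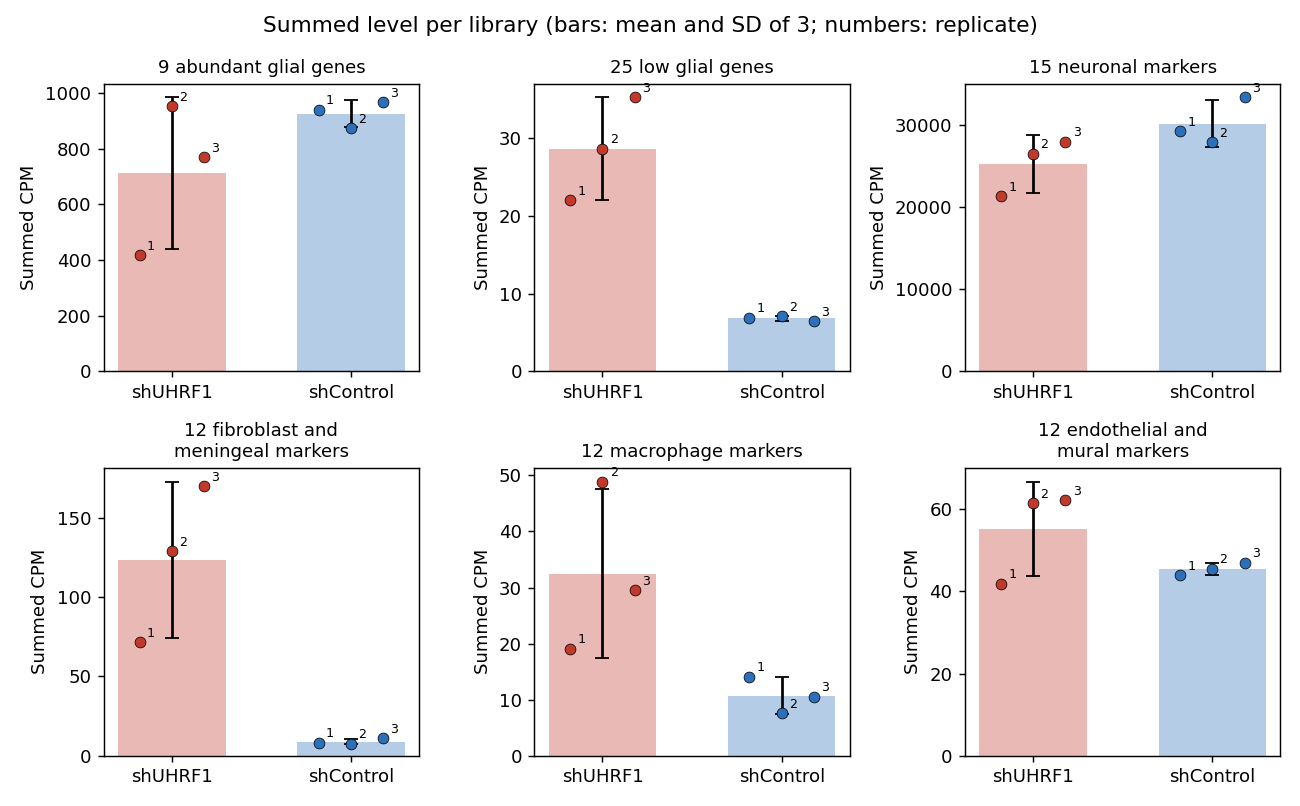
Summed CPM per library of the glial genes of low level, the abundant glial genes and the marker lists of other cell types. Bars are the mean and SD of 3 libraries, and points are libraries with their replicate number, shUHRF1 left of shControl. The low-level glial sum is 22.0 to 35.2 CPM in shUHRF1 libraries and 6.41 to 7.06 CPM in shControl libraries.

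Among markers of other non-neuronal cells, the fibroblast and macrophage sums were higher in every shUHRF1 library than in any shControl library. The endothelial and mural sums overlapped between the groups. As with the members, a gene of low level could pass the filter through the shUHRF1 libraries alone. The shares of these marker lists are thus a description, beside 11.6% called higher and 12.4% lower over all tested genes. Of 12 fibroblast and meningeal markers, 8 were tested and all 8 were called higher. The fibroblast list summed to 71.7, 129 and 170 CPM in shUHRF1 libraries, against 8.25, 7.57 and 10.9 CPM in shControl libraries. Postn, a secreted matrix protein, had a log2 fold change of 4.30 ± 0.28 (edgeR, adjusted p = 0.000293), and Col3a1, a fibrillar collagen, one of 4.35 ± 0.63 (edgeR, adjusted p = 0.00338). No fibroblast marker was at 0 in a shUHRF1 library, and 1, 2 and 1 were at 0 in the shControl libraries. Of 12 macrophage markers, 5 of 9 tested were called higher, with sums of 19.1, 48.9 and 29.5 CPM in shUHRF1 libraries and 14.1, 7.57 and 10.5 CPM in shControl libraries. No macrophage marker was at 0 in a shUHRF1 library, and 1, 1 and 0 were at 0 in the shControl libraries. Aif1, a macrophage actin-binding protein, was not called (log2 fold change 0.71 ± 0.51, edgeR, adjusted p = 0.361). Lyz2, a lysozyme of macrophages, changed by 3.77 ± 0.87 on the log2 scale (edgeR, adjusted p = 0.0182). Its call was lost without shControl replicate 1 (adjusted p = 0.0519), 2 (0.0598) or 3 (0.0776), and without shUHRF1 replicate 2 its log2 fold change was 2.88. Of 12 endothelial and mural markers, 3 of 8 tested were called higher, with sums of 41.9, 61.5 and 62.2 CPM in shUHRF1 libraries and 43.9, 45.5 and 47.0 CPM in shControl libraries. In that list 1, 0 and 0 markers were at 0 in the shUHRF1 libraries, and 0, 1 and 1 in the shControl libraries. Egfl7, secreted by endothelium, was not called (-0.13 ± 0.18, edgeR, adjusted p = 0.634), and Pdgfrb, a receptor of mural cells, was higher (1.45 ± 0.26, edgeR, adjusted p = 0.00675). Of 15 neuronal markers, none was called higher and 2, Gap43 and Tubb3, were called lower, while the fit with the replicate block called 1 higher (Elavl4, adjusted p = 0.0246) and 4 lower (also Rbfox3, 0.0389, and Pou4f1, 0.0494). Gap43, a growth cone protein named after its values were seen, as were Elavl4, Rbfox3 and Pou4f1, had 315, 585 and 552 CPM in shUHRF1 libraries, against 1705, 1678 and 1928 CPM in shControl libraries. It fell by 1.87 ± 0.23 on the log2 scale (edgeR, adjusted p = 0.00181) and was called in all 6 fits that left out a library. Tubb3, a neuronal tubulin, fell (-0.75 ± 0.17, edgeR, adjusted p = 0.0168), a call lost without shUHRF1 replicate 3 (0.0633), shControl replicate 1 (0.0585) or shControl replicate 3 (0.06). Prph, a neurofilament-type protein of peripheral neurons, was not called (0.06 ± 0.15, edgeR, adjusted p = 0.826). The part of these other cells in the glial result was not tested.

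Among the signals and receptors, Erbb3 had the smallest adjusted p. This receptor binds neuregulin and is needed for the survival of Schwann cell precursors. It lies at chr10:128567523-128589652 (GRCm38, minus strand) and had 109, 71 and 133 reads in the shUHRF1 libraries, against 6, 12 and 11 reads in the shControl libraries. These were 4.89, 4.18 and 6.44 CPM in shUHRF1 libraries and 0.348, 0.777 and 0.526 CPM in shControl libraries. Every shUHRF1 library was several times above every shControl library, and the log2 fold change was 3.23 ± 0.35 (edgeR, adjusted p = 0.0013). Its partner Erbb2, which has no known ligand of its own, had 15, 9 and 32 reads in the shUHRF1 libraries, against 2, 2 and 9 reads in the shControl libraries. The shUHRF1 libraries were all above the shControl libraries, but by a narrow margin. Its log2 fold change of 1.94 ± 0.64 was not called (edgeR, adjusted p = 0.0628), while the fit with the replicate number as a block called it (adjusted p = 0.0107), as did the fit without shUHRF1 replicate 2 (0.0494).

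Nrg1, the axonal ligand of these receptors, had 135, 154 and 161 CPM in shUHRF1 libraries, against 171, 168 and 175 CPM in shControl libraries. The groups did not overlap, with shUHRF1 below, but the log2 fold change of -0.19 ± 0.11 was not called (edgeR, adjusted p = 0.236). Ednrb, an endothelin receptor of neural crest and glial precursors, had 3.41, 2.59 and 4.84 CPM in shUHRF1 libraries, against 0.348, 0.777 and 0.287 CPM in shControl libraries. Its shUHRF1 levels were all above the shControl levels (log2 fold change 2.96 ± 0.45, edgeR, adjusted p = 0.00386). Dhh, a hedgehog signal that Schwann cells send to the nerve sheath, had 13, 19 and 30 reads in the shUHRF1 libraries, against 1, 3 and 2 reads in the shControl libraries. The gene was thus close to undetected in shControl libraries, and its log2 fold change was 3.14 ± 0.59 (edgeR, adjusted p = 0.00822). Its exons overlap those of Rhebl1 on the same strand over 12.4% of their length, so some of its reads are uncertain.

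Lgi4, a secreted Schwann cell protein needed for timely myelination, had 1.39, 3.30 and 4.17 CPM in shUHRF1 libraries, against 1.51, 0.842 and 1.0 CPM in shControl libraries. Replicate 1 of shUHRF1 lay within the shControl range, and the change of 1.39 ± 0.45 was not called (edgeR, adjusted p = 0.059). Without that library it was called (adjusted p = 0.012). Its value is uncertain, since 44.9% of its exon length overlaps Fxyd3 on the opposite strand and the strand setting is not given in the sources used here. Ptprz1, a receptor phosphatase that binds pleiotrophin, averaged 31.9 ± 8.31 CPM in shUHRF1 libraries and 32.8 ± 7.0 CPM in shControl libraries (SD, n = 3 each), with a log2 fold change of -0.04 ± 0.23 (edgeR, adjusted p = 0.918). Mia, a small secreted protein, did not pass the filter, with 6, 2 and 0 reads in the shUHRF1 libraries, against 2, 1 and 0 reads in the shControl libraries. Its exons overlap Gm21983 over 41.2% of their length.

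Of the transcription factors, Foxd3, which keeps neural crest and glial precursors undifferentiated, was the one tested. It had 13, 11 and 20 reads in the shUHRF1 libraries, against 2, 0 and 2 reads in the shControl libraries. The groups did not overlap, and the log2 fold change was 3.20 ± 0.65 (edgeR, adjusted p = 0.0112), a call lost without shControl replicate 3 (adjusted p = 0.0528). The pooled ratio was 9.84 (95% exact interval 3.58 to 37.7, counting error only). Egr2, the factor that switches on myelin genes, had 3, 2 and 12 reads in the shUHRF1 libraries, against 1, 1 and 1 reads in the shControl libraries. Most of its shUHRF1 reads came from replicate 3, and the pooled ratio was 5.07 (1.47 to 27.0). Tfap2a, a factor of neural crest and Schwann cell precursors, had 5, 6 and 4 reads in the shUHRF1 libraries, against 0, 4 and 2 reads in the shControl libraries, and overlapped. Pou3f1, which acts before Egr2 in promyelinating Schwann cells, had 0, 1 and 1 reads in shUHRF1 libraries and 0, 1 and 1 reads in shControl libraries, both under the floor of 3 reads.

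Of the 10 genes of Schwann cell precursors and satellite glia, 7 were tested and 5 were called higher, beside 11.6% over all tested genes. Those of low level could pass the filter through the shUHRF1 libraries alone, so this share is a description. Fabp7, a fatty acid binding protein of glial precursors, had 2.20, 2.47 and 1.74 CPM in shUHRF1 libraries, against 0.290, 0.388 and 0.335 CPM in shControl libraries. Its levels varied little within either group, and the log2 fold change was 2.64 ± 0.34 (edgeR, adjusted p = 0.00209). Cdh19, a cadherin of Schwann cell precursors, had 1.84, 3.42 and 5.33 CPM in shUHRF1 libraries, against 0.232, 0.453 and 0.622 CPM in shControl libraries. Its groups did not overlap (2.98 ± 0.51, edgeR, adjusted p = 0.00635), and within shUHRF1 it spread from 0.52 to 1.51 times the group mean. Apoe, a lipid carrier made by satellite glia and by macrophages, had 13.9, 58.1 and 35.9 CPM in shUHRF1 libraries, against 5.98, 3.82 and 5.21 CPM in shControl libraries. It was the one abundant gene called higher (2.84 ± 0.48, edgeR, adjusted p = 0.00603).

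Both gap junction genes of this group rose. Gja1, which encodes connexin 43, had 12, 22 and 20 reads in the shUHRF1 libraries, against 1, 1 and 1 reads in the shControl libraries. Each shControl library held a single read, and the change was 3.89 ± 0.59 (edgeR, adjusted p = 0.00401), with a pooled ratio of 16.1 (5.22 to 80.5). Gjc3, which encodes connexin 29 of Schwann cells, had 15, 18 and 33 reads in the shUHRF1 libraries, against 1, 0 and 0 reads in the shControl libraries. With a single shControl read the size of the change was poorly fixed, at a pooled ratio of 59.0 (10.2 to 2370). The fitted log2 fold change was 5.46 ± 0.82 (edgeR, adjusted p = 0.00383), and 7.42 without shControl replicate 1, which held that read (adjusted p = 0.0183).

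The other tested genes of the group, S100b and Glul, were abundant and were not called. S100b, a calcium-binding protein used as a glial marker, had 39.4, 281 and 192 CPM in shUHRF1 libraries, against 266, 218 and 260 CPM in shControl libraries. Replicate 1 of shUHRF1 was far below the other 5 libraries, and the change of -0.54 ± 0.55 was not called (edgeR, adjusted p = 0.525). Glul, the glutamine synthetase of satellite glia, averaged 70.7 ± 22.0 CPM in shUHRF1 libraries and 79.0 ± 5.22 CPM in shControl libraries (SD, n = 3 each), with a change of -0.16 ± 0.21 (edgeR, adjusted p = 0.622).

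Slc1a3, Gfap and Art3 did not pass the filter, although their shUHRF1 CPM were all above those of shControl, as for 21.7% of all tested genes. The margin was narrow for Slc1a3 (lowest shUHRF1 0.404 CPM, highest shControl 0.383 CPM) and for Art3 (0.225 against 0.174 CPM). Slc1a3, a glial glutamate transporter, had 9, 37 and 15 reads in the shUHRF1 libraries, against 4, 2 and 8 reads in the shControl libraries. Most of its shUHRF1 reads came from replicate 2. Gfap, an intermediate filament of glia, had 21, 6 and 9 reads in the shUHRF1 libraries, against 3, 1 and 0 reads in the shControl libraries. Art3, an ADP-ribosyltransferase family member, had 5, 18 and 15 reads in the shUHRF1 libraries, against 3, 2 and 1 reads in the shControl libraries. Their pooled ratios were 3.90 (2.15 to 7.54) for Slc1a3, 8.05 (2.89 to 31.1) for Gfap and 5.66 (2.38 to 16.4) for Art3.

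Of the 12 myelin sheath genes, 6 were tested, none was called higher and 1 was called lower, with a median log2 fold change of -0.39. Over all tested genes, 11.6% were called higher and 12.4% lower, and 6 genes are too few to set apart from those shares. Mbp, which compacts the myelin membrane, had 45.6, 85.8 and 78.6 CPM in shUHRF1 libraries, against 137, 117 and 151 CPM in shControl libraries. The groups did not overlap (-0.95 ± 0.23, edgeR, adjusted p = 0.0217). This call was lost without shUHRF1 replicate 3 (adjusted p = 0.0529), shControl replicate 1 (0.0639) or shControl replicate 3 (0.078). The count is per gene, and does not separate the myelin transcripts of Mbp from the longer Golli transcripts that start upstream in the same locus. Pmp22, a tetraspan protein of compact myelin, had 10.2, 102 and 55.0 CPM in shUHRF1 libraries, against 138, 98.3 and 110 CPM in shControl libraries. Its shUHRF1 libraries spread widely, with replicate 1 far below the rest, and the change of -1.06 ± 0.63 was not called (edgeR, adjusted p = 0.264).

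Cadm4, an adhesion molecule of the Schwann cell internode, averaged 91.0 ± 22.7 CPM in shUHRF1 libraries and 101 ± 20.7 CPM in shControl libraries (SD, n = 3 each), and was not called (-0.15 ± 0.22, edgeR, adjusted p = 0.662). Cnp, an enzyme of non-compact myelin, averaged 36.2 ± 4.17 CPM in shUHRF1 libraries and 37.8 ± 0.452 CPM in shControl libraries (SD, n = 3 each), and was not called (-0.06 ± 0.12, edgeR, adjusted p = 0.744). Ncmap, a protein of non-compact myelin, had 1.84, 2.18 and 1.5 CPM in shUHRF1 libraries, against 1.86, 1.29 and 0.957 CPM in shControl libraries, and was not called (0.43 ± 0.34, edgeR, adjusted p = 0.406). Prx, a scaffold of myelinating Schwann cells, had 0.449, 0.707 and 0.727 CPM in shUHRF1 libraries, against 0.871, 0.712 and 1.29 CPM in shControl libraries, and was not called (-0.63 ± 0.39, edgeR, adjusted p = 0.278).

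The other 6 myelin genes did not pass the filter. Mag, an adhesion protein facing the axon, had 9, 2 and 7 reads in the shUHRF1 libraries, against 1, 1 and 0 reads in the shControl libraries, a pooled ratio of 8.05 (1.93 to 71.5). Mal, a proteolipid, had 0, 4 and 11 reads in the shUHRF1 libraries, against 0, 1 and 0 reads in the shControl libraries, a pooled ratio of 13.4 (2.06 to 565). Cldn11, a tight junction protein best known from oligodendrocytes, had 0, 3 and 2 reads in the shUHRF1 libraries and none in the shControl libraries. Set against a floor of 3 reads over the shControl group, its ratio was 1.49, with no counting error taken in, and the groups overlapped. Cldn19, a tight junction protein of Schwann cells, had 6, 3 and 3 reads in the shUHRF1 libraries, against 2, 3 and 1 reads in the shControl libraries, a pooled ratio of 1.79 (0.621 to 5.81). Gjb1, the connexin 32 of non-compact myelin, had 0, 3 and 1 reads in the shUHRF1 libraries, against 2, 5 and 1 reads in the shControl libraries, a pooled ratio of 0.447 (0.0985 to 1.67). Pmp2, a lipid-binding protein of myelin, had 1, 0 and 0 reads in the shUHRF1 libraries and none in the shControl libraries, and its exons overlap Gm37389 on the same strand over 86.9% of their length.

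Per kilobase of exon, the abundant genes still lay above the rest, but by a narrow margin in shUHRF1 libraries. There the abundant Ptprz1 had 2.24 CPM per kilobase and Fabp7, of low level, had 1.71. In shControl libraries Ptprz1 had 2.30 and Fabp7 0.270. S100b had 115 CPM per kilobase in shUHRF1 libraries and 167 in shControl libraries, Cadm4 42.1 in shUHRF1 libraries and 46.7 in shControl libraries, and Pmp22 23.7 in shUHRF1 libraries and 49.1 in shControl libraries. Apoe had 16.8 CPM per kilobase in shUHRF1 libraries and 2.34 in shControl libraries. Erbb3 had 0.860 CPM per kilobase in shUHRF1 libraries and 0.0915 in shControl libraries, and Gjc3 0.255 in shUHRF1 libraries and 0.00444 in shControl libraries.

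Within shUHRF1, replicate 1 was the lowest library for most genes called higher and for all other abundant genes. Of the 9 genes called higher, 6 were highest in replicate 3 and 3 in replicate 2, and 6 were lowest in replicate 1. All 8 abundant genes that were not called higher were lowest in replicate 1. Erbb3 in replicate 1 was at 0.95 times its shUHRF1 mean, and Apoe at 0.39 times. Without shUHRF1 replicate 1, 12 of the 22 glial genes tested were called higher and 1 lower, beside 9 and 1 of 21 with it. That fit called 1481 higher and 1709 lower of all 15890 genes tested, beside 1807 and 1928 of 15573 with all libraries. The median log2 fold change of the tested glial genes was 2.09 without that library, beside 1.39 with it.

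Because Uhrf1 acts on methylated CpG sites, the letters before the start of a few genes are shown, with CpG dinucleotides in capitals. Each is the 250 bases before the most upstream start listed by RefSeq on GRCm38.p6, read 5′ to 3′ on the gene's strand. Pmp22 has 4 listed starts, and Gjc3, Foxd3 and Cadm4 have 1 each. Gjc3 at chr5:137963099-137963348 (minus strand, 3 CpG) and Foxd3 at chr4:99656049-99656298 (plus strand, 21 CpG) were called higher. Pmp22 at chr11:63128732-63128981 (plus strand, 3 CpG) and Cadm4 at chr7:24481773-24482022 (plus strand, 30 CpG) were abundant and not called.
Gjc3: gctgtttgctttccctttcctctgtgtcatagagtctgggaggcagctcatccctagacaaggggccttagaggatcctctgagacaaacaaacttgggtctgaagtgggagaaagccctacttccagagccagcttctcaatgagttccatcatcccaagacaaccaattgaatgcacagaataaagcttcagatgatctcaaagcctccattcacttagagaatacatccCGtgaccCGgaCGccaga
Foxd3: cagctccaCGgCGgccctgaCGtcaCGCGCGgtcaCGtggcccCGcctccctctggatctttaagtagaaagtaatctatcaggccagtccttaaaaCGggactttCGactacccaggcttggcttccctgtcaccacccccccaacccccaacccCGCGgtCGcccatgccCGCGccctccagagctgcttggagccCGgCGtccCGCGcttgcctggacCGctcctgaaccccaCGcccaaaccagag
Pmp22: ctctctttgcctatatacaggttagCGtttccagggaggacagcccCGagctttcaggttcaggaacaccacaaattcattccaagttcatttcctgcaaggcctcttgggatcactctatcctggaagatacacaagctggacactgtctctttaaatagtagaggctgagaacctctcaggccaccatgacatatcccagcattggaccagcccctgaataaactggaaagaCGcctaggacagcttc
Cadm4: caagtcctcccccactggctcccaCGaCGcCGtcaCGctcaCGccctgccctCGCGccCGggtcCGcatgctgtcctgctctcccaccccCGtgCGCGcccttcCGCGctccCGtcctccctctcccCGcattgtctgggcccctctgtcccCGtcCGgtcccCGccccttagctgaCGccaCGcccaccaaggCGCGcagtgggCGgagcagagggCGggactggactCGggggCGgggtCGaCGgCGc

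Of the 34 genes, 27 had such a window in the RefSeq table. The bases after the start matched an annotated transcript of the gene for 20 of the 27. They did so for 6 of the 7 windows of genes called higher and 4 of the 6 of abundant genes not called higher. The 7 called higher that had one held 3 to 21 CpG (median 8.0), and the 6 abundant ones not called higher held 2 to 30 (median 14.0), beside a median of 6.0 over all 27025 windows. Few-CpG and many-CpG starts thus occurred in both sets. The letters ACAAAG, a core of the sites bound by SOX factors, were found on either strand in 4 of the 27 windows (14.8%), beside 16.5% of all windows. DNA methylation was not measured in these libraries.

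**Figure D4:**
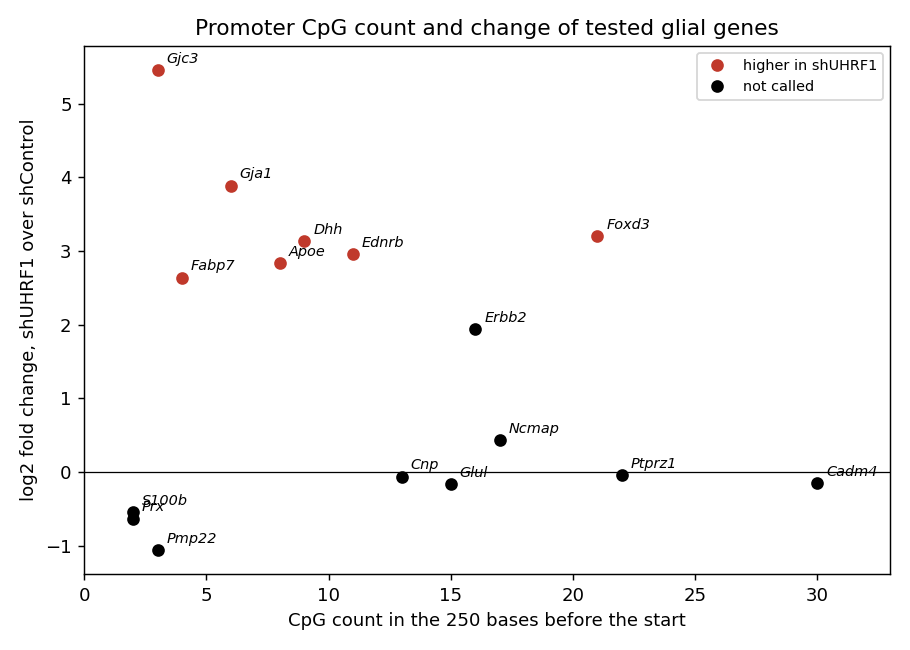
Log2 fold change of shUHRF1 over shControl (vertical axis) against the number of CpG dinucleotides in the 250 bases before the start (horizontal axis), for the tested glial genes that have a window. Counts run from 3 to 21 for the genes called higher (red) and from 2 to 30 for those not called (black).

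Other genes of the same pathways were taken from lists of names, also chosen with earlier results of these data known. Here too, a gene of low level could pass the filter through the shUHRF1 libraries alone, so the shares in each list are a description. The shares over all tested genes were 11.6% higher and 12.4% lower. Of 31 further Schwann lineage and myelin genes, 27 were tested, 11 were called higher and none lower, with a median log2 fold change of 0.67. The fit with the replicate block called 12 higher and 1 lower, with Nab1 (adjusted p = 0.0466) and Id2 (0.0324) gained as higher, Serpine2 (0.00233) gained as lower and Drp2 (0.0519) lost, all 4 named after their values were seen. Itga6, a laminin receptor subunit, had 6.74, 7.71 and 10.4 CPM in shUHRF1 libraries, against 0.581, 1.10 and 1.58 CPM in shControl libraries (2.91 ± 0.36, edgeR, adjusted p = 0.00195). Its groups were far apart. Lama2, a laminin chain of the Schwann cell basal lamina, changed by 3.13 ± 0.47 (edgeR, adjusted p = 0.00383), and Itgb4, the partner subunit of Itga6, by 1.66 ± 0.27 (edgeR, adjusted p = 0.00502). The most abundant of the list were not called: Ngfr, a neurotrophin receptor of neurons and glia, at -0.30 ± 0.25 (edgeR, adjusted p = 0.42) and Zeb2, a transcription factor of neural crest, at 0.40 ± 0.18 (edgeR, adjusted p = 0.156).

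Of 12 further genes of satellite glia and astroglia, 10 were tested and 9 were called higher, with a median log2 fold change of 2.11. Gpm6b, a membrane proteolipid, had 18.9, 15.8 and 14.0 CPM in shUHRF1 libraries, against 3.02, 3.50 and 2.92 CPM in shControl libraries (2.37 ± 0.19, edgeR, adjusted p = 0.000533). Slc1a2, a glutamate transporter, changed by 1.82 ± 0.22 (edgeR, adjusted p = 0.00168), and Sparcl1, a matrix protein, by 1.86 ± 0.24 (edgeR, adjusted p = 0.00226). Vim, an intermediate filament of many non-neuronal cells, changed by 0.50 ± 0.15 (edgeR, adjusted p = 0.0479). Its call was lost without shUHRF1 replicate 1 (0.0953) or 3 (0.162), or without shControl replicate 1 (0.168), 2 (0.132) or 3 (0.0875). Aldh1l1, a folate enzyme of astroglia, changed by 1.40 ± 0.34 (edgeR, adjusted p = 0.0217), a call lost without shControl replicate 1 (0.0557), 2 (0.0652) or 3 (0.0622).

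Of 20 further genes of the neuregulin and ErbB pathway, 16 were tested, none was called higher and 3 were called lower, with a median of 0.12. The fit with the replicate number as a block called 3 higher and 3 lower. Shc1, an adaptor of receptor tyrosine kinases, had 26.9, 33.9 and 25.1 CPM in shUHRF1 libraries, against 90.8, 91.5 and 82.3 CPM in shControl libraries (-1.63 ± 0.14, edgeR, adjusted p = 0.000653). Nrg2, another neuregulin, changed by -1.28 ± 0.26 (edgeR, adjusted p = 0.0114). Grb2, another adaptor, changed by -0.63 ± 0.16 (edgeR, adjusted p = 0.0275), a call lost without shUHRF1 replicate 3 (0.0917), shControl replicate 1 (0.0713) or shControl replicate 3 (0.0982). Grb7, an adaptor that binds ErbB receptors, was not called (1.54 ± 0.49, edgeR, adjusted p = 0.0568) but was with the replicate block (0.0245). Pik3r1, a regulatory subunit of PI3 kinase, was not called (adjusted p = 0.256) except without shUHRF1 replicate 1 (0.00993), and Bace1, the protease that releases neuregulin, was not called (-0.05 ± 0.12, edgeR, adjusted p = 0.791).

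Of 19 partners of Dhh, Lgi4, Ednrb and Ptprz1, 15 were tested and 5 were called higher, with a median of 0.15. Ptn, or pleiotrophin, the ligand of Ptprz1, had 530, 329 and 503 CPM in shUHRF1 libraries, against 74.8, 68.1 and 88.2 CPM in shControl libraries (2.56 ± 0.20, edgeR, adjusted p = 0.000516), while Ptprz1 itself was not called. Boc, a hedgehog co-receptor, changed by 1.63 ± 0.17 (edgeR, adjusted p = 0.00114). Edn1, a ligand of Ednrb, had 1 shControl read in all, so its fitted change of 5.47 ± 0.79 (edgeR, adjusted p = 0.00329) was poorly fixed, at 7.36 without shControl replicate 3. Smo, the hedgehog signal transducer, changed by 3.54 ± 0.69 (edgeR, adjusted p = 0.00998), and by 4.26 without shControl replicate 3. Cntn1, an axonal adhesion molecule (adjusted p = 0.257), and Adam22, an Lgi4 receptor (adjusted p = 0.336), were not called.

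**Figure D5:**
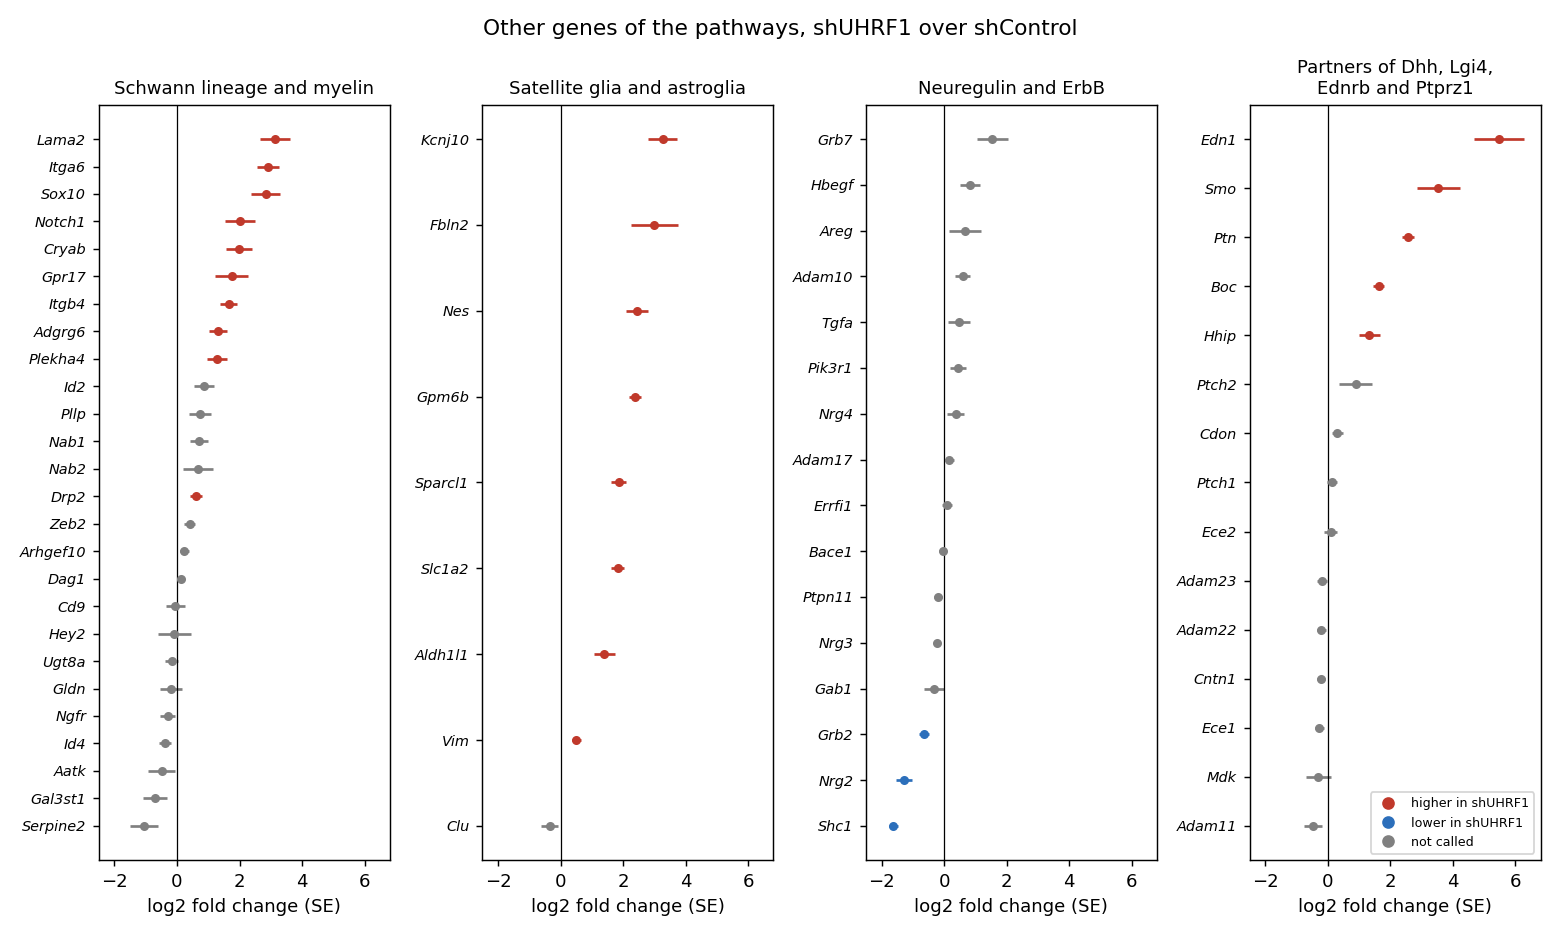
Log2 fold change of shUHRF1 over shControl with its SE for genes of the 4 pathway lists that were tested and are reported here, as fitted by edgeR. Genes of satellite glia and astroglia lie mostly above 0, with a median of 2.11, and Shc1 is the lowest of the neuregulin list at -1.63.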

How the data were processed

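RNA-seq of 6 libraries was used, 3 of shUHRF1 and 3 of shControl. The authors deposited whole-number read counts per gene and library, as raw counts. The submitters' processing notes name FastQC, STAR, HTSeq, DESeq2 and mm10, with no versions, annotation release or strand setting given in the sources consulted. Per the labels' protocols, ribosomal RNA was depleted and cDNA made with a SMARTer kit. The 5 summary lines that name no gene were kept out (8.43% to 17.18% of entries outside genes, 2.12% to 2.27% ambiguous, 30.5% to 37.28% not unique). Symbols came from GENCODE M21 on GRCm38 (47224 identifiers matched, 419 did not).

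edgeR 4.0.16 (R 4.3.3) filtered genes with filterByExpr, scaled by TMM and tested with the quasi-likelihood test. These steps were also run on simulated counts, drawn with the same spread setting for every gene and no pairing. That run cannot show how the test behaves at the spread of these libraries. Alternatives were DESeq2 1.42.0, limma-voom (limma 3.58.1), other scalings and filters, a replicate block and leaving out each library. Same-numbered libraries deviated together (correlations 0.32, 0.40 and 0.40, against -0.28 to -0.0019 for the others). The numbers were thus taken to pair the libraries in the alternative with a replicate block, from the data and not from the labels. The main calls and p-values come from the fit without this pairing, since the labels state no block. The fit with the block called 4820 genes in place of 3735. No 2 libraries of a group agreed within sampling noise (chi-square per degree of freedom 21.5 to 58.0). Intervals cover counting error only. The members, lists and naming rule were chosen with earlier results of these data known. Named genes are all 34 members, from each pathway list up to 4 with the smallest p and the 2 most abundant, and from each marker list the 2 most abundant. Some genes that the rule names are not reported here, and list counts and medians include them.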

Additional observations from a re-analysis of the deposited data

How the results depend on the processing

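With the replicate number as a block, 4820 genes were called in place of 3735, and of the glial genes 10 were higher and 1 lower. Erbb2 was the one gained (adjusted p = 0.0107), and the block changed no other call among them. With no filter on low counts, 14 of the glial genes were higher and 2 lower (Mbp and Pmp22, the second at an adjusted p of 0.044), and their median log2 fold change was 1.85. With at least 2 CPM in at least 3 libraries, 3 were higher, and the median turned to -0.11, since that filter removes most genes of low level. Leaving out each library in turn gave 1768 to 3888 called genes, with 2171 without shUHRF1 replicate 3, 2018 without shControl replicate 1 and 1768 without shControl replicate 3. It gave 8 to 12 glial genes higher and 0 to 1 lower, with medians of 0.79 (without shUHRF1 replicate 3) to 2.09, and Uhrf1 ratios of 0.216 to 0.46, a setting chosen after seeing the data. Upper-quartile scaling moved the median of all genes to 0.142 and the split to 2512 higher and 1378 lower (64.6% higher, in place of 48.4%), with 11 glial genes higher. A setting whose filter removed a gene gave no value for it. With the 2 CPM filter, 11 glial genes were tested in place of 21. Of the 282 values of single glial genes under the alternatives, 269 kept their call or lack of one, 9 gained a call and 4 lost one. The sign turned in 6, all of genes not called: upper-quartile scaling gave Cnp 0.06 and Ptprz1 0.08, and leaving out 1 library gave Cadm4 0.03, Glul 0.02 and Ptprz1 0.08 and 0.16. Genes with a few reads per library limit what this depth can show.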
